A study of Mus musculus with 4 samples.

Results

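Interferon-response and antigen-processing genes were followed in immature thymocytes positive for both CD4 and CD8 (double-positive cells) after exposure to dexamethasone, a synthetic glucocorticoid. The set was defined by name as 38 genes, and a gene was taken from every probe set whose annotation named that gene and no other. Of the 38, 32 had such a probe set, 42 probe sets in all, among 8251 genes on the array. Oas1a, Bst2, Irf2, Stat2, Ifi203 and Ly6a had none and were not analysed here. The question was whether the rise of Usp18 from background was shared by the other genes that interferons induce.

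The labels give 4-week-old female mice of the strain C3H/HeN as donors and microbeads as the means of sorting. Culture lasted 3 h for every sample, in 3 ml with 5.0E+06 cells per ml. The dexamethasone group (2 arrays) received 1e-07 M dexamethasone in PBS, and the medium group (2 arrays) received medium with 0.1% PBS. The 2 arrays of a group are described as technical replicate extracts, so p-values measure the spread between extracts and not between mice or cultures. No source says whether cells of several mice were pooled.

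Interferons are cytokines released on infection. Type I interferons act through the receptor chains Ifnar1 and Ifnar2, the kinases Jak1 and Tyk2 and a transcription factor complex that contains Irf9 and binds the interferon-stimulated response element in target promoters. Interferon gamma acts through its own receptor, with Irf1 as an activator further on. Among the targets is Usp18, a protease that cleaves Isg15, a small protein resembling ubiquitin, off other proteins and also binds Ifnar2 and restrains signalling. The immunoproteasome, the peptide transporter Tap1/Tap2 and B2m, which supply peptides to MHC class I molecules, are induced by interferons and are also made in lymphoid cells at rest.

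Promoter sequences are shown for a few listed genes to set the response element beside the measured change. RefSeq promoters (GRCm38.p6) matched 31 of the 38 genes, with 39 start sites, and were read over the 250 bases before each start. Usp18, Ifi204, Tap2, Mx1, Mx2, Ly6a and Ly6e had no entry. The core of the element was searched on both strands as GAAANNGAA, overlapping matches included. It was found in 14 of the 39 promoters of listed genes, 1 each for 14 genes, against 7.13% of 32851 promoters of the same length. Capitals mark its matches in the sequences below, each written 5′ to 3′ on the strand of the gene.
Isg15 (chr4:156200819-156201068, - strand): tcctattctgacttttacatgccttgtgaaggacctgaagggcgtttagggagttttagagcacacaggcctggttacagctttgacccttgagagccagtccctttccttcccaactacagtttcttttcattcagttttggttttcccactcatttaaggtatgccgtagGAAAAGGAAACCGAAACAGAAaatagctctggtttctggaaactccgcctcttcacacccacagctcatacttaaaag
Ifit1 (chr19:34640639-34640888, + strand): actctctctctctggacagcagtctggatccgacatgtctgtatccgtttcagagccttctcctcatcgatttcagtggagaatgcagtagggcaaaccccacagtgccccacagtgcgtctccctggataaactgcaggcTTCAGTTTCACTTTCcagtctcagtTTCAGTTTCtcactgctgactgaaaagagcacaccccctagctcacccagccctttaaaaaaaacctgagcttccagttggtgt
Igtp (chr11:58199306-58199555, + strand): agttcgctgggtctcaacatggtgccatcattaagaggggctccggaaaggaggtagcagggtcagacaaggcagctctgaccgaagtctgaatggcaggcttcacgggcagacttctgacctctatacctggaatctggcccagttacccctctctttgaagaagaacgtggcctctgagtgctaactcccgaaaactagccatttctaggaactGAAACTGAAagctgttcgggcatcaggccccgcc
B2m (chr2:122147437-122147686, + strand): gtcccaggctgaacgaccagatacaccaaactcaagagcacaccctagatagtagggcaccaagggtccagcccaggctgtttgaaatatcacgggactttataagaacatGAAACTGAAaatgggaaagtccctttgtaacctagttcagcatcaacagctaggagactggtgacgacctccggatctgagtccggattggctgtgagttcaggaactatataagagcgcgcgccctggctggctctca
The Isg15 promoter held 3 overlapping matches between 78 and 58 bases before the start, Ifit1 held 3 matches between 109 and 76 bases, and Igtp and B2m held 1 each. Of the 9 measured genes with a match, 2 (Ifit1 and Ifit3) stayed at background in both groups. The other 7 (Adar, B2m, Gbp2, Gbp3, Igtp, Irgm1 and Isg15) were tested and 0 passed in limma, with log2 differences from -0.62 to 0.26, and 3 of them (B2m, Gbp2 and Igtp) had an unadjusted p under 0.05, against 21.7% of all genes tested. Of 17 measured genes without a match 15 were tested and 1 rose, against 2.34% of all genes tested. The median log2 difference was -0.04 for those without a match and -0.16 for those with one. Usp18, Ifi204 and Tap2, which rose, had no promoter entry and are in neither group. A promoter without these letters may hold other elements. The core of the glucocorticoid response element, searched as ACANNNTGT, was found in 1 of the 39 promoters (Ifi47), against 5.84% of all promoters. A match of letters is a description and does not show that a factor bound there.

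The signals are linear intensities. A signal of 14, the highest value of 19 probe sets for bacterial and yeast transcripts, was taken as background. The 15 antisense control probe sets reached 34.6, so signals between 14 and 34.6 are close to what unspecific binding gave. Differences are given on the log2(signal + 1) scale as dexamethasone minus medium, with the standard error of limma's fit, and understate the change of dim genes. A gene is said to have risen or fallen only where limma's Benjamini-Hochberg adjusted p over all genes tested was under 0.05.

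Median signals ran from 21.1 to 22.8 over the 4 arrays. For the actin controls, the 3′ signal over the 5′ signal was 1.06 to 1.16 in medium and 1.24 to 1.4 with dexamethasone. The Gapdh ratio overlapped between the groups. The 9 hybridization controls, transcripts added before hybridization, were brighter on both dexamethasone arrays, and scaling to them would shift the median log2 difference of all genes by -0.46, so every direction below is relative to the deposited scaling. Of 13 double-positive markers 11 were measured and 0 were at background, among them Cd4, Cd8a and Rag1. Of these 11, 1 rose (Satb1) and 2 fell (Cd8b1 and Ptcra), against 2.34% and 2.53% of all genes tested. Of 5 measured markers of mature single-positive thymocytes, 1 was at background in both groups and 1 (Il7r) rose. Markers of thymic epithelium were at background in both groups for 6 of 7. Of 14 markers of myeloid and dendritic cells, 7 were at background in both groups, among them Itgam, Adgre1 and Fcer1g. They summed to 1053 and 1080 in the medium group and to 1099 and 1032 in the dexamethasone group, of which Cst3, a widely expressed gene, gave 866.4 and 895.8 and then 935.1 and 871.4. The 7 B cell markers summed to 1430 and 1407 in medium and 1932 and 1911 with dexamethasone. Ighm gave 1282 and 1257 and then 1751 and 1749 of these sums. It rose (log2 difference 0.46 ± 0.06, limma adjusted p = 0.0119), the 1 of 3 tested B cell markers to do so. Cd79a, Cd22 and Blk overlapped between the groups, while Ms4a1, Cd79b and Pax5 were higher on both dexamethasone arrays. The part of B cells in the results below was not tested.

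Usp18 rose far more than any other of the 26 listed genes that could be tested. It read 3.4 and 7.0 without the hormone, and 130.1 and 104.5 after it. The medium arrays lay at background and both dexamethasone arrays far above it. The mean signal went from 5.20 ± 2.55 (SD, n = 2) to 117 ± 18.1, which is 8.38 times the background of 14. This ratio is used below as a lower bound and makes no allowance for the spread between arrays. It would be smaller against the 34.6 that the antisense controls reached. The fitted log2 difference of 4.31 ± 0.31 (limma adjusted p = 0.00176) rests on medium arrays at background and is not a measured size. It was 2.65 with a pseudocount of 16. For scale, of 6 listed targets of the glucocorticoid receptor 5 were tested and 4 rose, against 2.34% of all genes tested. The largest log2 differences among these targets were 1.86 for Fkbp5 and 1.75 for Ddit4. Per1 did not pass (limma adjusted p = 0.39), and Tsc22d3 was at background in both groups and not tested. Usp18 was read by 1 probe set, and it passed the filter on dim genes through its dexamethasone arrays alone. It also passed with no filter.

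Isg15, the ubiquitin-like protein that Usp18 removes, did not rise with it. The medium arrays gave signals of 24.3 and 23.6, the dexamethasone arrays 10.4 and 22. Both dexamethasone arrays were below both medium arrays, but all values were close to unspecific binding and the dexamethasone arrays differed widely from each other. The log2 difference was -0.62 ± 0.35, with a 95% interval from -1.46 to 0.21 (limma adjusted p = 0.357). Isg15 was above the filter on dim genes in its medium mean and not in its dexamethasone mean. Uba7, the activating enzyme of Isg15 conjugation, went from 166.1 and 172.3 to 153.0 and 146.6 and did not pass. Trim25, a ligase linked to the same pathway, had signals of 601.7 and 666.3 in medium and 739.8 and 772.0 with dexamethasone and did not pass (limma adjusted p = 0.117).

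**Figure D1:**
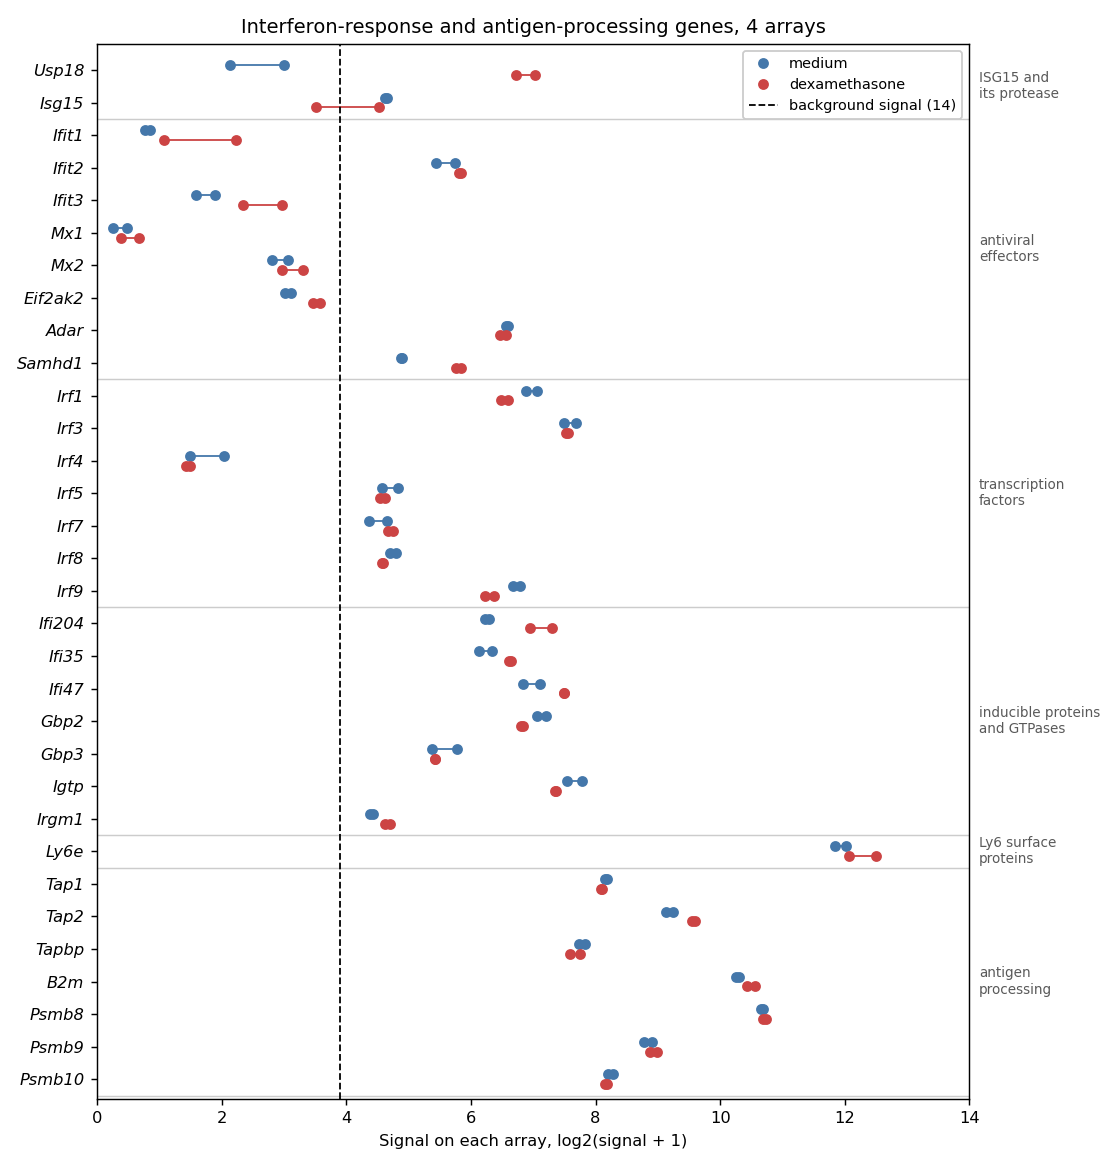
Signal of the 32 measured genes on each array, as log2(signal + 1), by role; blue points are the 2 medium arrays, red points the 2 dexamethasone arrays, lines join arrays of a group, and the dashed line is the background signal of 14. Usp18 alone among them starts below the line in medium and lies above it on both dexamethasone arrays, while Ifit1, Ifit3, Mx1, Mx2, Eif2ak2 and Irf4 stay below it on every array.

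Of the 8 measured antiviral effectors, 5 were at background with and without dexamethasone. Ifit1, which binds foreign RNA ends, had signals of 0.7 and 0.8 in medium and 1.1 and 3.7 with dexamethasone. Ifit3, its partner, had 2.0 and 2.7 in medium and 4.1 and 6.8 with dexamethasone. Mx1, a GTPase that blocks influenza virus, was at 0.6 or less on every array. These levels cannot be ordered, since all lie at or under 14, and no fold is given. Mx2 ran from 6.0 to 8.9 over the 4 arrays. Eif2ak2, the RNA-activated kinase PKR, ran from 7.1 to 11.0. These 5 of the 8 measured effectors were left out by the filter on dim genes, so they were not tested, and a small change below background cannot be seen here.

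Of the other effectors, 1 of 3 rose, against 2.34% of all genes tested. Samhd1, which degrades deoxynucleotides and so limits viral reverse transcription, rose from 28.4 and 28.6 to 53.1 and 56.3. The groups lay well apart, although the medium values are close to unspecific binding. The log2 difference was 0.92 ± 0.15, a 1.89-fold rise (limma adjusted p = 0.0250), and the call was lost when any of the 4 arrays was left out. A dimmer Samhd1 probe set read 1.4 and 4.2 in medium and 5.8 and 8.4 with dexamethasone, all at background. Ifit2 had 42.5 and 52.4 in medium and 55.0 and 56.4 with dexamethasone, a log2 difference of 0.23 ± 0.16 that did not pass. Adar, which edits adenosines in double-stranded RNA, had 95.4 and 93.3 in medium and 87.3 and 93.5 with dexamethasone, so its groups overlapped. They also overlapped on a dimmer Adar probe set, at 8.9 and 16.9 against 13.6 and 12.9, at or near background.

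None of the 6 interferon regulatory factors tested passed in limma, and 2 of them had an unadjusted p under 0.05, both lower with dexamethasone, as were 11.9% of all genes tested. Irf1, the activator induced by interferon gamma, went from 116.8 and 132.5 to 95.3 and 88.1. Irf9, the DNA-binding part of the type I complex, went from 101.2 and 109.6 to 81.8 and 74.0. In both genes the dexamethasone arrays lay below the medium arrays, with log2 differences of -0.44 ± 0.11 for Irf1 (limma adjusted p = 0.0857) and -0.43 ± 0.12 for Irf9 (limma adjusted p = 0.0927).

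Irf3, the constitutive factor activated by viral sensing, overlapped between the groups at 178.5 and 204.6 against 183.9 and 188.4. Irf7, the factor that amplifies interferon production, had a log2 difference of 0.20 on its brighter probe set and -0.11 on the other, with signals from 19.5 to 26.1 over both. Irf5 and Irf8, factors of myeloid and B cells, ran from 22.2 to 27.6 and from 22.9 to 26.9, close to unspecific binding. Irf4, a factor of activated lymphocytes, was at 3.1 or less on every array and was not tested.

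Among 7 interferon-inducible proteins and GTPases, only Ifi204 passed, against 4.87% of all genes tested, and the others lay on both sides of 0. Ifi204, a member of the p200 family of DNA-binding proteins, rose from 77.1 and 74.0 to 157.0 and 122.3. Both dexamethasone arrays were above both medium arrays. The log2 difference was 0.87 ± 0.14 (limma adjusted p = 0.0250). Only without the second dexamethasone array was the call kept among the 4 fits that left out an array. This probe set is of the family type, whose probes match several similar genes, so Ifi204 cannot be separated from its relatives. The other Ifi204 probe sets read 1.1 to 3.8 and 2.5 to 15.9, at or near background.

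None of the 3 immunity-related GTPases, a family with a part in defence against intracellular parasites, passed in limma. Of the 3, 2 had an unadjusted p under 0.05, against 21.7% of all genes tested. Ifi47 had 137.5 and 112.7 in medium and 179.4 and 179.9 with dexamethasone, a log2 difference of 0.53 ± 0.12 (limma adjusted p = 0.0568). Igtp had the opposite sign, from 186.4 and 219.1 to 162.9 and 164.7, a log2 difference of -0.30 ± 0.10 that did not pass. Neither pair of groups overlapped. Irgm1 ran from 19.8 to 25.1, within the range of unspecific binding. Gbp2, a guanylate-binding protein, went from 131.9 and 146.3 to 111.1 and 112.8 (-0.31 ± 0.10, limma adjusted p = 0.146), and Gbp3 overlapped between the groups at 40.3 and 53.8 against 41.7 on both dexamethasone arrays. Ifi35, which binds other interferon-induced proteins, had 68.8 and 80.3 in medium and 99.3 and 96.3 with dexamethasone, a log2 difference of 0.39 ± 0.12 that did not pass.

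Ly6e, a glycolipid-anchored surface protein also known as thymic shared antigen, had 4140 and 3680 in medium and 5768 and 4292 with dexamethasone. The groups did not overlap, but the dexamethasone arrays lay far apart, and the log2 difference of 0.35 ± 0.14 did not pass. Genes within 0.5 of its mean log2 signal had a median difference of 0.29. A dimmer Ly6e probe set was at background.

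Antigen-processing genes were all well above background, and only Tap2 passed of the 7 tested, against 4.87% of all genes tested. Tap2, a chain of the transporter that carries peptides into the endoplasmic reticulum, rose from 607.5 and 561.1 to 745.3 and 772.7. Its log2 difference was 0.38 ± 0.07 (limma adjusted p = 0.0368), and it was -0.08 with scaling to the hybridization controls. The call was also lost when any array was left out. The partner chain Tap1 had 283.8 and 288.6 in medium and 272.2 and 273.7 with dexamethasone, a log2 difference of -0.07 ± 0.07. A dimmer Tap1 probe set read 5.6 and 5.2 in medium and 5.9 and 7.9 with dexamethasone, all at background. Whether Tap1 and Tap2 differ in their response was not tested.

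In the RefSeq annotation Psmb9, Tap1, Psmb8 and Tap2 lie next to each other on chromosome 17. The proteasome subunits of this cluster gave overlapping groups, Psmb8 with 1656 and 1611 against 1648 and 1694, and Psmb9 with 440.1 and 479.1 against 508.2 and 469.0. The 95% interval of the log2 difference was -0.12 to 0.18 for Psmb8 and -0.10 to 0.28 for Psmb9. Psmb10, the subunit encoded elsewhere, had a log2 difference of -0.08 ± 0.07. B2m, the light chain of MHC class I, had 1268 and 1224 in medium and 1507 and 1379 with dexamethasone, a log2 difference of 0.21 ± 0.07 that did not pass (limma adjusted p = 0.157). Tapbp, which loads peptides onto MHC class I, was read by 3 probe sets with log2 differences of -0.11, -0.50 and 0.06, and none passed in the fit of probe sets.

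**Figure D2:**
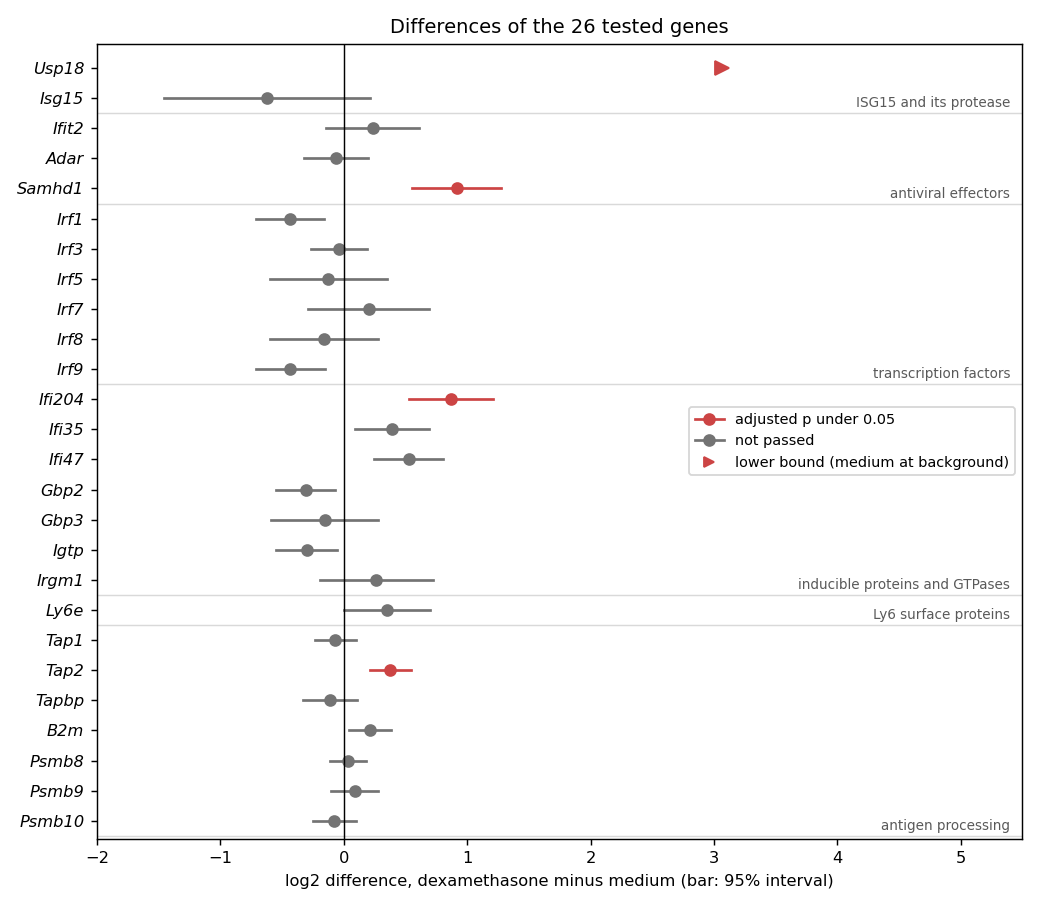
Log2 difference between dexamethasone and medium for the 26 tested genes by role, with 95% intervals from limma; red marks an adjusted p under 0.05, and the triangle is a lower bound. Usp18, at background in medium, is drawn at its bound of 3.07, the log2 of its mean dexamethasone signal over 14. The upper limit of every other gene is at most 1.28.

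In all, 4 of the 26 listed genes tested rose (Usp18, Samhd1, Ifi204 and Tap2), which is 15.4%, and 0 fell. Over all 4950 genes tested, 2.34% rose and 2.53% fell, 4.87% in either direction. Scaled to the hybridization controls instead, 1 of the 26 rose (Usp18) and 12 fell, beside 37 and 2491 of all genes. Without adjustment, at a limma p under 0.05, 8 listed genes were higher and 4 lower, against 9.8% and 11.9% of all genes. Both dexamethasone arrays lay above both medium arrays for 11 of the 26, against 24.8% of all genes, and below them for 8, against 27.4%. The genes were listed with earlier results of these data known, and Usp18 passed the filter only through the group in which it was high, so these shares are a description. The median log2 difference was -0.00 over the 26 and -0.01 over all genes tested, with 13 listed genes higher and 13 lower.

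No other tested gene of the list reached the Usp18 bound of 3.07, the log2 of 8.38. The bound leaves out the 1 added to signals elsewhere and carries no interval, so the scales are not quite alike. After Usp18 the largest difference was 0.92 for Samhd1, and its upper 95% limit of 1.28, or 2.42-fold, was the highest among the other 25. The 6 listed genes at background on all arrays were not tested, so a rise that stayed at or under a signal of 14 would be missed. Whether probe sets at background read their transcripts in these cells was not tested, for these genes or for others such as Cxcl10. Tsc22d3, a listed target of the glucocorticoid receptor, was also at background with dexamethasone.

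**Figure D3:**
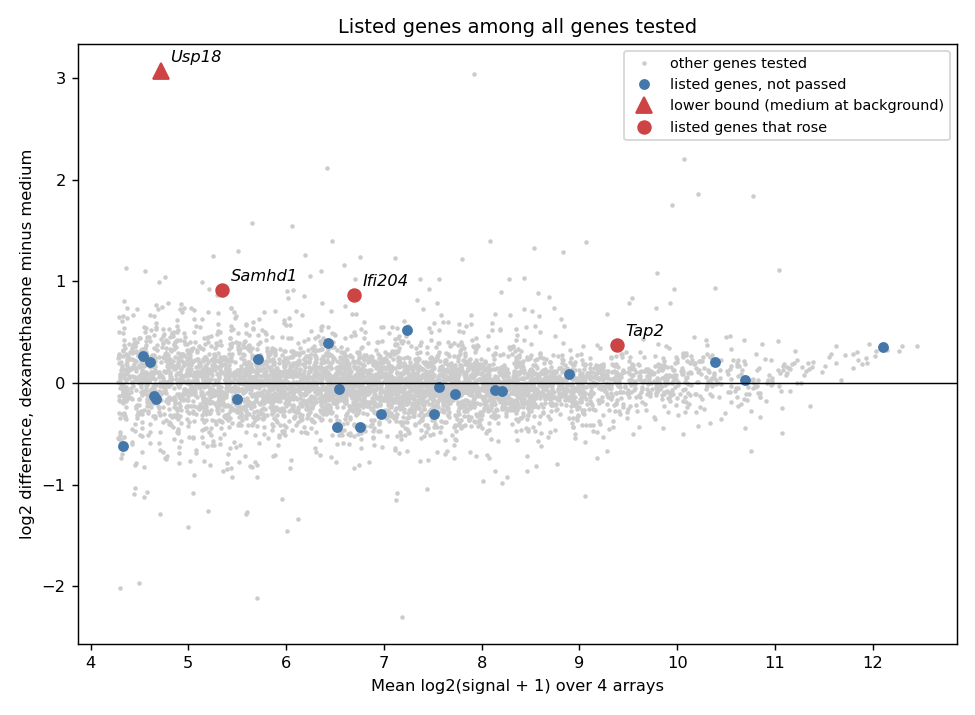
Log2 difference between dexamethasone and medium against mean log2(signal + 1) for all 4950 genes tested (grey), with the listed genes that passed in red and the others in blue. Usp18 is drawn as a triangle at its lower bound of 3.07, while 22 listed genes that did not pass lie between -0.62 and 0.53.

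Other genes of the pathway, taken from 5 lists, changed in few places and in both directions. Of 104 listed, 76 were measured and 48 tested, of which 2 rose and 3 fell, against 2.34% and 2.53% of all genes tested. The interferon genes themselves were dim. Ifnb1 and Ifng were at 5.1 or less on every array. Of the interferon alpha genes measured, Ifna2, Ifna4 and Ifna11 were at background, Ifna2 on a family-type probe set, and Ifna5 read 20.9 to 33.2 on a family-type probe set.

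Of 15 tested receptors and signalling genes, 1 rose and 2 fell, against 2.34% and 2.53% of all genes tested. Jak1, the kinase shared by type I and type II interferon receptors and many cytokine receptors, rose from 545.6 and 559.5 to 906.3 and 1006, a log2 difference of 0.79 ± 0.07 (limma adjusted p = 0.00366). Its call was lost in 2 of 16 alternatives, 1 of them a fit without the first medium array. Socs1, which inhibits Jak kinases and is itself induced by interferons, fell from 2300 and 2076 to 1317 and 1427 (-0.67 ± 0.08, limma adjusted p = 0.00831), a call lost in 3 of 4 fits that left out an array: the first or second medium array or the first dexamethasone array. Ifnar2, the receptor chain to which Usp18 binds, fell from 304.3 and 310.9 to 243.4 and 223.9 (-0.40 ± 0.08, limma adjusted p = 0.0432), and this call was lost when any array was left out. Ifnar1, the other chain, overlapped between the groups at 213.8 and 229.1 against 207.3 and 218.2. Ifngr1, the ligand-binding chain for interferon gamma, overlapped at 272.8 and 285.6 against 285.2 and 275.1.

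Among 8 tested genes of Isg15 conjugation and other deubiquitinating enzymes, only Usp2 rose, against 2.34% of all genes tested. This ubiquitin protease read 51.6 and 54.7 in medium and 94.6 and 99.2 with dexamethasone, a log2 difference of 0.85 ± 0.12 (limma adjusted p = 0.0153). Its dimmer probe set, at 24.8 and 32.4 against 67.9 and 57.5, moved the same way. The call was lost when any array was left out.

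Of 42 other interferon-induced genes listed, 27 were measured, 12 were at background in both groups, and 10 were tested. Of these 10, 0 passed in limma, and 1 was higher in the sense that both dexamethasone arrays lay above both medium arrays, while 4 were lower, against 24.8% and 27.4% of all genes. Cxcl10, a chemokine that responds strongly to interferons, was at 3.0 or less on every array. The largest differences were those of Ifi27 (-0.25 ± 0.07) and Irgm2 (-0.22 ± 0.12). Without adjustment 2 of the 10 had a limma p under 0.05, near the 21.7% of all genes.

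Of 10 tested MHC class I and loading genes, 1 fell and 0 rose, against 2.53% and 2.34% of all genes tested. At an unadjusted limma p under 0.05, 3 were lower and 1 higher, against 11.9% and 9.8% of all genes. Both dexamethasone arrays lay below both medium arrays for 4 and above them for 1, against 27.4% and 24.8%. H2-Q1, a non-classical class I gene, fell from 712.5 and 790.5 to 453.8 and 444.4 (-0.74 ± 0.07, limma adjusted p = 0.00505) on a family-type probe set that other class I genes may share. The classical gene H2-K1 overlapped between the groups on its brightest probe set, at 894.3 and 911.9 against 994.9 and 882.8, and was lower on a dimmer one, at 122.4 and 129.6 against 107.9 and 88.1. Its dimmest probe set overlapped, at 12.3 and 18.7 against 17.3 and 17.7. H2-D1, the other classical gene measured, had 833.7 and 870.1 in medium and 749.9 and 741.7 with dexamethasone on its brightest probe set and did not pass (-0.19 ± 0.06, limma adjusted p = 0.147). The groups overlapped on its dimmer probe sets, with log2 differences of 0.01 and 0.05. All of these but the dimmest of H2-K1 are family-type probe sets too. Of the 5 tested proteasome counterparts and activator genes 0 passed in limma, with 1 at an unadjusted p under 0.05. The largest differences were -0.19 ± 0.07 for Psmb5, the standard subunit that Psmb8 replaces, and -0.17 ± 0.09 for Psme3.

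**Figure D4:**
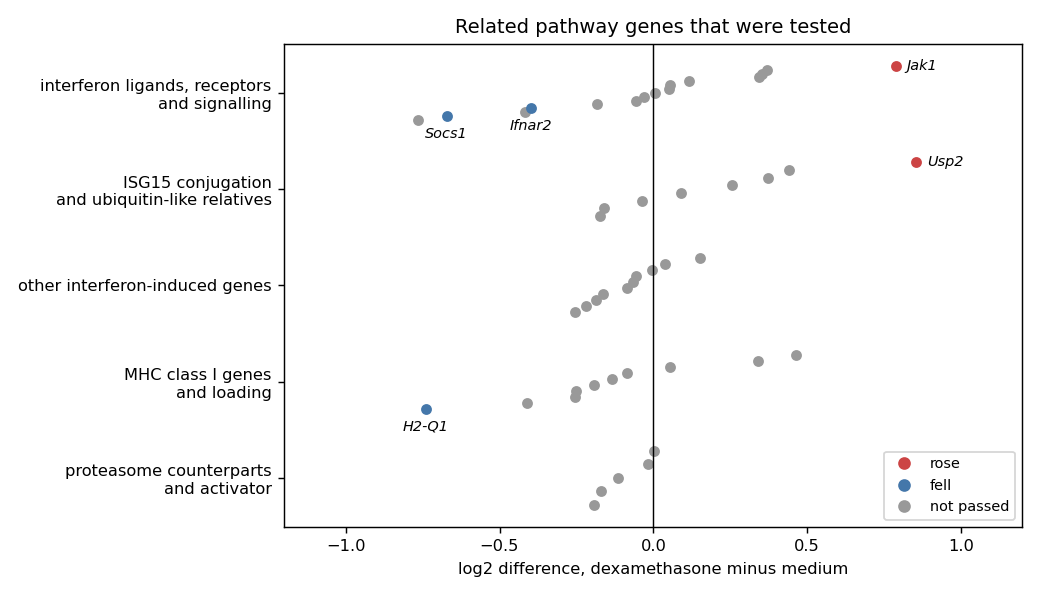
Log2 difference between dexamethasone and medium for the tested genes of 5 related lists, 1 point a gene; red and blue mark genes that rose or fell at an adjusted p under 0.05. Jak1 and Usp2 rose, Socs1, Ifnar2 and H2-Q1 fell, and the other interferon-induced genes lie between -0.25 and 0.15.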

How the data were processed

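RNA was measured on 4 Affymetrix mouse arrays. The deposited table holds linear intensities. Per the submitters' processing notes the authors used MAS5, whose version and settings are not given. The trimmed mean, 2% from each end, lay between 100.06 and 100.07 on every array, so the values share a global scaling. Detection calls were not used. Of 12488 probe sets, 10833 named 1 gene, 396 several and 1193 none, and 66 were controls.

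A gene with several probe sets was read from the one with the highest mean. Values were taken as log2(signal + 1), and genes with a mean at or under the 40th percentile of genes were dropped, leaving 4950. The groups were compared in limma 3.58.1 (R 4.3.3), using lmFit and eBayes with an intensity trend. Tests were two-sided and adjusted by Benjamini-Hochberg over all 4950 genes. On simulated data for these genes, in 10 draws with 200 changed genes each, recovery was 34.2% for log2 changes of 0.5, 78.8% for changes of 1 and 98.5% for changes of 2, and false calls made up 4.91%. The number of arrays limits the precision.

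Every listed gene with a probe set was named, as were related genes that passed and, in a list where none passed, the 2 with the largest difference; other genes named were chosen after their values were seen. A further promoter motif is not reported here. The members, lists and tests were chosen with earlier results of these data known. The alternatives were 3 scalings, 2 pseudocounts, 2 filters, no variance trend, a replicate block, averaging a gene's probe sets, testing single probe sets and leaving out each array; a filter at the 40th percentile of all probe sets was added after the data were seen. Replicates with the same number had deviations from their group means that correlated at 0.0892, and the numbers were not taken as pairs.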

Additional observations from a re-analysis of the deposited data

How the results depend on the processing

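Usp18 kept its rise and its call in all 15 alternatives that tested it, with log2 differences from 2.65 to 4.74; these values rest on medium arrays at background; the filter at the 60th percentile left it out. Leaving out 1 array gave log2 differences of 3.88 to 4.74 for Usp18, 1 to 2 listed genes that rose, 0 that fell, 47 to 103 changed genes overall against 241 with all arrays, 0 to 1 related genes that rose and 1 to 3 that fell, and a median difference of the listed genes from -0.0107 to 0.0541. The number of listed genes that rose, 4, was 1 with no filter (Usp18), where 116 genes changed and the listed genes' median was 0.121 over 32 genes; 2 without the variance trend (Usp18 and Samhd1), where 69 genes changed and 0 related genes fell; and 2 with the mean of probe sets (Usp18 and Tap2). Scaling to the hybridization controls moved the median log2 difference of all genes tested to -0.459, and not every gene by the same amount. Then 1 listed gene rose (Usp18) and 12 fell, beside 37 and 2491 of all genes (2528 in all). Of the related genes 0 rose and 30 fell, and the listed genes' median was -0.458. Tap2 was then at -0.0787 and Psmb8 at -0.424, against 0.38 and 0.03 with the deposited scaling. With a replicate block 371 genes changed, 175 up and 196 down, and 6 listed genes rose, Ifi47 and Ly6e besides the 4; with 2 pairs and a correlation of 0.0892 between same-numbered arrays the pairing is not established. The filter over all probe sets, added after the data were seen, tested 5582 genes and called the same 4 listed genes. Samhd1 kept its call in 8 of 15 alternatives, Ifi204 in 9 of 15, Tap2 in 8 of 16, Ifnar2 in 6 of 16 and Usp2 in 11 of 16. Signals near background limit what can be said of Isg15, Irf5, Irf7, Irf8 and Irgm1.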
